A study of Mus musculus with 20 samples.

Results

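The insulin-like growth factor (IGF) genes were taken as the probe sets whose single gene symbol in the platform annotation is Igf1, Igf2, Igf1r, Igfbp2, Igfbp3, Igfbp4, Igfbp5, Igfbp6 or Igfbp7. Of these 9 genes, 8 had such a probe set, of the 8251 genes with one on the array, and they had 13 probe sets among 12488. The only probe set for Igfbp5 also names another gene, so Igfbp5 has no value here. After the dimmest 40% of probe sets were left out, 9 IGF probe sets of 7 genes were tested. The other 4 were too dim: the only one of Igfbp7, and one each of Igf1, Igf2 and Igfbp4.

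Hearts came from male mice housed singly, B6C3F1 in the growth protocol, 5 animals per group and 1 oligonucleotide array per animal. The diet of one group held 500 mg/kg of each of alpha-tocopherol and gamma-tocopherol, and that of another held 1000 mg/kg alpha-tocopherol. Both diets began at 15 months of age, and these mice were 30 months old. Old controls of 30 months and young controls of 5 months received the control diet. Both tocopherols are forms of vitamin E. The strain label is B6/C3H F1 hybrid, but B6/C3H hybrid for old controls 1 and 4. No animals were pooled.

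IGF1 and IGF2 are secreted peptides that signal for growth, survival and protein synthesis through the tyrosine kinase receptor IGF1R. Most circulating IGF1 comes from the liver under growth hormone, and the heart also makes its own. The IGF binding proteins hold the ligands in tissue fluid and blood, and proteases release them. IGF receptor signalling runs through adaptors, PI3K and AKT to FOXO factors and the translation repressors 4E-BP.

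The promoters of Igf1, Igfbp2 and Igfbp6 are shown because these were the IGF genes with a called difference between the groups of old mice. They are RefSeq sequences of the build GRCm38.p6, 300 bases each, from 250 before to 50 after a transcript start, on the plus strand: Igf1 at chr10:87860861-87861160, Igfbp2 at chr1:72824230-72824529 and Igfbp6 at chr15:102143936-102144235. The Igf1 window is the only one listed for the gene and does not lie at the gene's annotated start, and the Igfbp2 window is the one of 2 listed that does. Capitals mark exact matches, on either strand, to 6 motifs. The TATA box was searched for as TATAAA, the GC box as GGGCGG, and the CCAAT box by the letters in its name. The E box was searched for as CACGTG, the core of the antioxidant response element as TGACNNNGC, and the forkhead core as GTAAACA.
Igf1: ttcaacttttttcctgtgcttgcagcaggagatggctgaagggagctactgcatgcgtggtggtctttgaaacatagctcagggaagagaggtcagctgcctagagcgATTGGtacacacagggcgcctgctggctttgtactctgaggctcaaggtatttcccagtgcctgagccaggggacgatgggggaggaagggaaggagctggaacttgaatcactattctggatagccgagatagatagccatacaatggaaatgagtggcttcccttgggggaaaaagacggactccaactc
Igfbp2: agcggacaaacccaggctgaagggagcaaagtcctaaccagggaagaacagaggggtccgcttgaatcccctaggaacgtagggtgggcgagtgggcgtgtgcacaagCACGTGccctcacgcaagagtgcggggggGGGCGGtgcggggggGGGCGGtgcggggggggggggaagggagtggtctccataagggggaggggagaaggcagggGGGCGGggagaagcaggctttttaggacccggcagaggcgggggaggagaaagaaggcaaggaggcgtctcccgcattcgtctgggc
Igfbp6: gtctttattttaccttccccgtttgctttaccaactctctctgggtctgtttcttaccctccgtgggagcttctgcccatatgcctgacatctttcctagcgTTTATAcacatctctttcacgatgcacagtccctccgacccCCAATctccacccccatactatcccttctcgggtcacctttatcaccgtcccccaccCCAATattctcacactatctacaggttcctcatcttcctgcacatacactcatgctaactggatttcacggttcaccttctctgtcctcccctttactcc
The Igf1 promoter held 1 CCAAT box, on the reverse strand, and its GC content was 52.3%. That of Igfbp2 held 3 GC boxes and 1 E box, at 67.0% GC. That of Igfbp6 held a TATA box on the reverse strand and 2 CCAAT boxes, at 49.7% GC. The CCAAT box was the only motif found in more than 1 of the 3, and marked matches did not overlap. Of all 32851 promoters in the table, 37.4% held a CCAAT box, 35.7% a GC box, 13.6% a TATA box, 7.15% an E box, 12.4% the antioxidant core and 3.65% the forkhead core. Of the 13 promoters that the table lists for the 9 genes, 0 held the forkhead core and 2 held the antioxidant core, namely 1 of Igf2 and 1 of Igfbp2. A match is only a run of letters, and the arrays do not measure binding to it.

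Igf1 had its highest levels in the 2 supplemented groups and the young controls, and the lowest in the old controls. It was lower in old than in young control hearts and higher in both supplemented groups than in old controls. Levels of different probe sets cannot be set against each other, so all values below compare groups within a probe set. Differences are of log2(intensity + 58) ± SE, with 5 animals per group.

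The tested Igf1 probe set (95545_at) read 6287, 5685, 4989, 4666 and 5798 in the alpha- and gamma-tocopherol hearts. In the alpha-tocopherol hearts it read 6307, 6089, 9771, 5379 and 6205. In old controls it read 2855, 3287, 3464, 3715 and 3146, and in young controls 6097, 6670, 4721, 3944 and 5469. Every old control lay below every animal of the other 3 groups, while the other 3 groups overlapped one another. The mean was 5485 ± 652 with alpha- and gamma-tocopherol, 6750 ± 1728 with alpha-tocopherol, 3293 ± 324 in old controls and 5380 ± 1082 in young controls (SD, n = 5 each).

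Igf1 fell by 0.68 ± 0.15 in old against young controls (adjusted p = 0.0073, limma with Benjamini-Hochberg over 7453 probe sets). It was higher than in old controls by 1.00 ± 0.15 in alpha-tocopherol hearts (limma adjusted p = 8.7e-05), a 1.99-fold level, and by 0.72 ± 0.15 in alpha- and gamma-tocopherol hearts (limma adjusted p = 0.0060), a 1.65-fold level. The supplements differed from each other by -0.27 ± 0.15 (alpha- and gamma-tocopherol minus alpha-tocopherol, 95% interval -0.58 to 0.034, limma adjusted p = 0.37). In the order of levels, alpha-tocopherol, alpha- and gamma-tocopherol and young control hearts, the neighbours did not differ beyond their spread, and only the step down to old controls passed the test. The 3 comparisons with old controls share those 5 arrays.

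**Figure D1:**
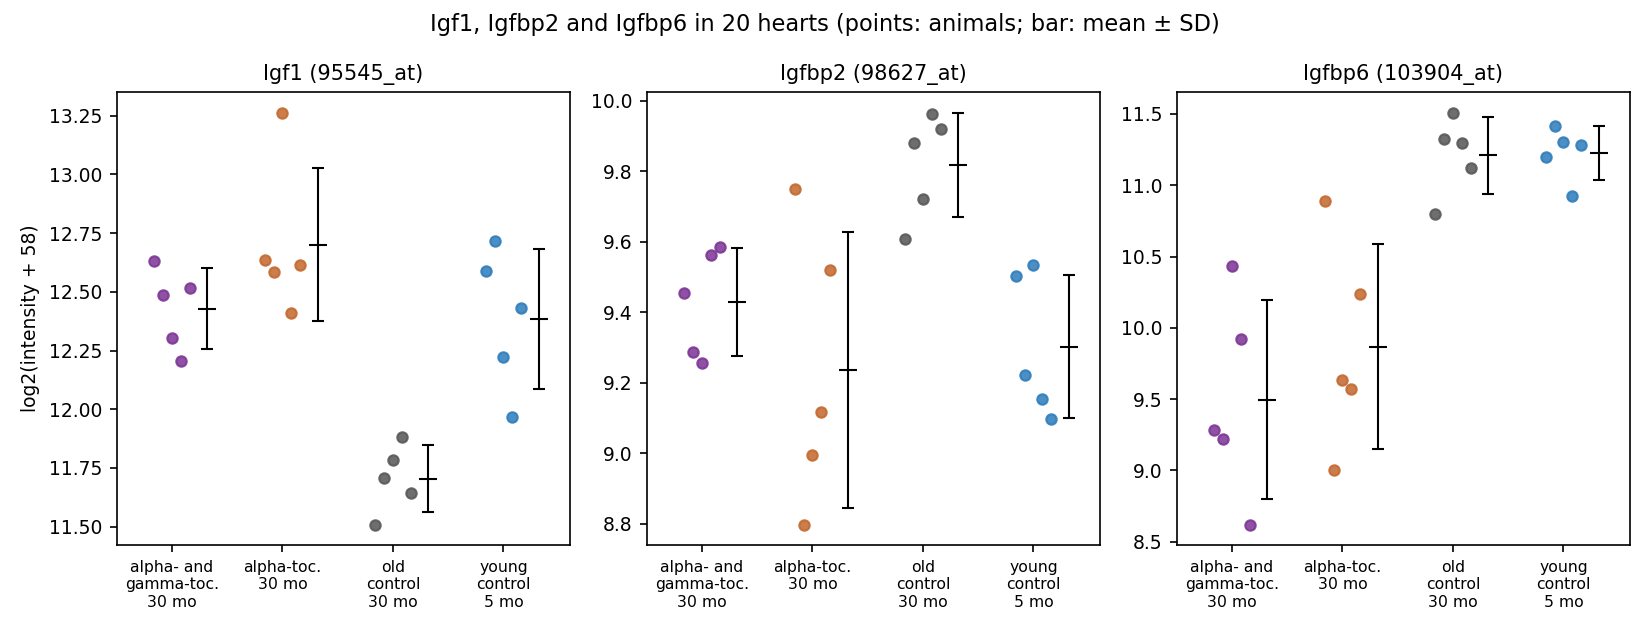
Intensity of Igf1, Igfbp2 and Igfbp6 as log2(intensity + 58) on the vertical axis, in the 4 groups on the horizontal axis, with 1 point per heart and the mean ± SD beside the points. All 5 old controls lie below every other animal for Igf1, and the supplemented hearts lie mostly below both control groups for Igfbp6.

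With the level of 18S ribosomal RNA as a covariate, the alpha-tocopherol difference of Igf1 was 0.81 ± 0.23 and no longer called (limma adjusted p = 0.070). On these arrays the 18S signal was 1.66 higher (log2) in alpha-tocopherol hearts than in old controls, and 0.52 higher in alpha- and gamma-tocopherol hearts. The bacterial hybridization controls on the array were 0.85 higher in alpha-tocopherol hearts and 0.28 higher in alpha- and gamma-tocopherol hearts. With them as a covariate the Igf1 difference with alpha-tocopherol was 1.06 ± 0.26 (limma adjusted p = 0.042), and without alpha-tocopherol heart 3, the highest, it was 0.86 ± 0.13 (limma adjusted p = 0.00021). Neither the 18S nor the hybridization control level overlapped between alpha-tocopherol hearts and either control group. Fits with these covariates therefore cannot tell this diet from the array measure, here and for Igfbp6, Igfbp2 and Igfbp4 below. The Igf1 differences of old from young controls, and of alpha- and gamma-tocopherol hearts from old controls, stayed called in every alternative tried. The GAPDH signal at the 3' end minus that at the 5' end (log2), a sign of RNA integrity, was 1.21 in old control 3 and between -0.17 and 0.19 on the other arrays. Without old control 3 the Igf1 differences were -0.70 for age, 1.02 with alpha-tocopherol and 0.74 with both tocopherols, and these calls and those of Igfbp6 and Igfbp2 were kept.

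The second Igf1 probe set (95546_g_at) was brighter than only 36.9% of the probe sets and was not tested with the others. It ranged from 133.7 to 901.6 in alpha- and gamma-tocopherol hearts, 145.3 to 558.5 in alpha-tocopherol hearts, 153.5 to 445.7 in old controls and 141.4 to 702.5 in young controls. The 4 groups overlapped. Fitted without the filter, it differed by -0.50 ± 0.44 in alpha-tocopherol hearts against old controls, in the other direction from the bright probe set and not called (limma adjusted p = 0.48). For age (-0.18 ± 0.44) and with both tocopherols against old controls (0.066 ± 0.44) it had the sign of the bright probe set, also without a call.

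The other ligand, Igf2, a fetal growth factor in the mouse, showed no called difference. Its tested probe set (98623_g_at) read 5899, 4597, 4164, 4794 and 5222 in alpha- and gamma-tocopherol hearts and 4986, 4256, 5316, 4917 and 6048 in alpha-tocopherol hearts. Old controls read 4909, 4671, 4882, 4538 and 4175 and young controls 4136, 4776, 2853, 4385 and 4334. The groups overlapped, and young control 3 was the lowest of all. Differences were 0.19 ± 0.13 for age (95% interval -0.066 to 0.45), 0.13 ± 0.13 with alpha-tocopherol against old controls (-0.13 to 0.39) and 0.082 ± 0.13 with both tocopherols against old controls (-0.18 to 0.34). The largest were those against young controls. They were 0.33 ± 0.13 with alpha-tocopherol (0.065 to 0.59, limma adjusted p = 0.082) and 0.28 ± 0.13 with both tocopherols (0.016 to 0.54, limma adjusted p = 0.22). These intervals lie above 0 but are not adjusted for the number of probe sets. The dim Igf2 probe set (98622_at) lay between 42.6 and 161.1 on all arrays.

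The receptor Igf1r, through which both ligands signal, also showed no called difference. Its probe set (102224_at) read 2513, 1875, 1752, 1305 and 1611 with alpha- and gamma-tocopherol, 1589, 1223, 1994, 1786 and 1540 with alpha-tocopherol, 1487, 1482, 1923, 1868 and 1205 in old controls and 1894, 2334, 1348, 1861 and 1582 in young controls. All 4 groups overlapped. The differences were -0.17 ± 0.17 for age (95% interval -0.53 to 0.19), 0.031 ± 0.17 with alpha-tocopherol (-0.33 to 0.39) and 0.17 ± 0.17 with both tocopherols (-0.20 to 0.53).

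Among the binding proteins, Igfbp6, which prefers IGF2, was lower in both supplemented groups than in old controls. Its probe set (103904_at) read 564.9, 538.9, 1322.3, 912.6 and 335.2 in alpha- and gamma-tocopherol hearts and 1836.3, 455.2, 737.4, 703.5 and 1149.8 in alpha-tocopherol hearts. Old controls read 1723.7, 2508.7, 2857.9, 2453.7 and 2168.7 and young controls 2291.6, 2679.8, 2473.9, 1881.5 and 2430.8. All 5 alpha- and gamma-tocopherol hearts lay below all old controls, as did 4 of 5 alpha-tocopherol hearts.

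Igfbp6 was lower than in old controls by a log2 difference of -1.71 ± 0.30 in alpha- and gamma-tocopherol hearts (limma adjusted p = 0.0017) and by -1.34 ± 0.30 in alpha-tocopherol hearts (limma adjusted p = 0.0028). The difference from young controls was -1.73 ± 0.30 in alpha- and gamma-tocopherol hearts (limma adjusted p = 0.0015) and -1.36 ± 0.30 in alpha-tocopherol hearts (limma adjusted p = 0.0038). Old and young controls differed by -0.015 ± 0.30 (95% interval -0.63 to 0.60, limma adjusted p = 0.99), and the supplements by -0.37 ± 0.30 (-0.99 to 0.24, limma adjusted p = 0.57). With the 18S level as a covariate the alpha-tocopherol difference from old controls was -0.74 ± 0.45 (limma adjusted p = 0.40) and that from young controls -0.69 ± 0.48 (limma adjusted p = 0.55), while the difference of alpha- and gamma-tocopherol hearts from old controls kept its call in every alternative tried. In the order of levels, young and old controls and then the supplements, only the step between old controls and alpha-tocopherol passed the test.

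Igfbp2, which binds both ligands, was lower with alpha-tocopherol than in old controls. Its probe set (98627_at) read 644.3, 566.5, 553.6, 697.6 and 710.3 in alpha- and gamma-tocopherol hearts, 803, 386.9, 452.2, 497.5 and 676.6 in alpha-tocopherol hearts, 722.3, 883.4, 785.8, 939.3 and 910.1 in old controls and 667.5, 539.4, 683.3, 512.2 and 489.6 in young controls. Old controls were above all young controls and all alpha- and gamma-tocopherol hearts, and 1 alpha-tocopherol heart overlapped them. The difference with alpha-tocopherol was -0.58 ± 0.19 (limma adjusted p = 0.029). The call was lost with the 18S covariate (-0.56), with the hybridization control covariate (-0.33), with only the compared groups fitted, without old controls 1 and 4 (-0.60, limma adjusted p = 0.081), and without any one of alpha-tocopherol animals 2, 3 or 4 or old controls 2, 4 or 5, when it ran from -0.57 to -0.47. The age difference, 0.52 ± 0.19 (limma adjusted p = 0.12), and that with both tocopherols, -0.39 ± 0.19 (limma adjusted p = 0.21), did not pass the test, though their groups did not overlap.

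**Figure D2:**
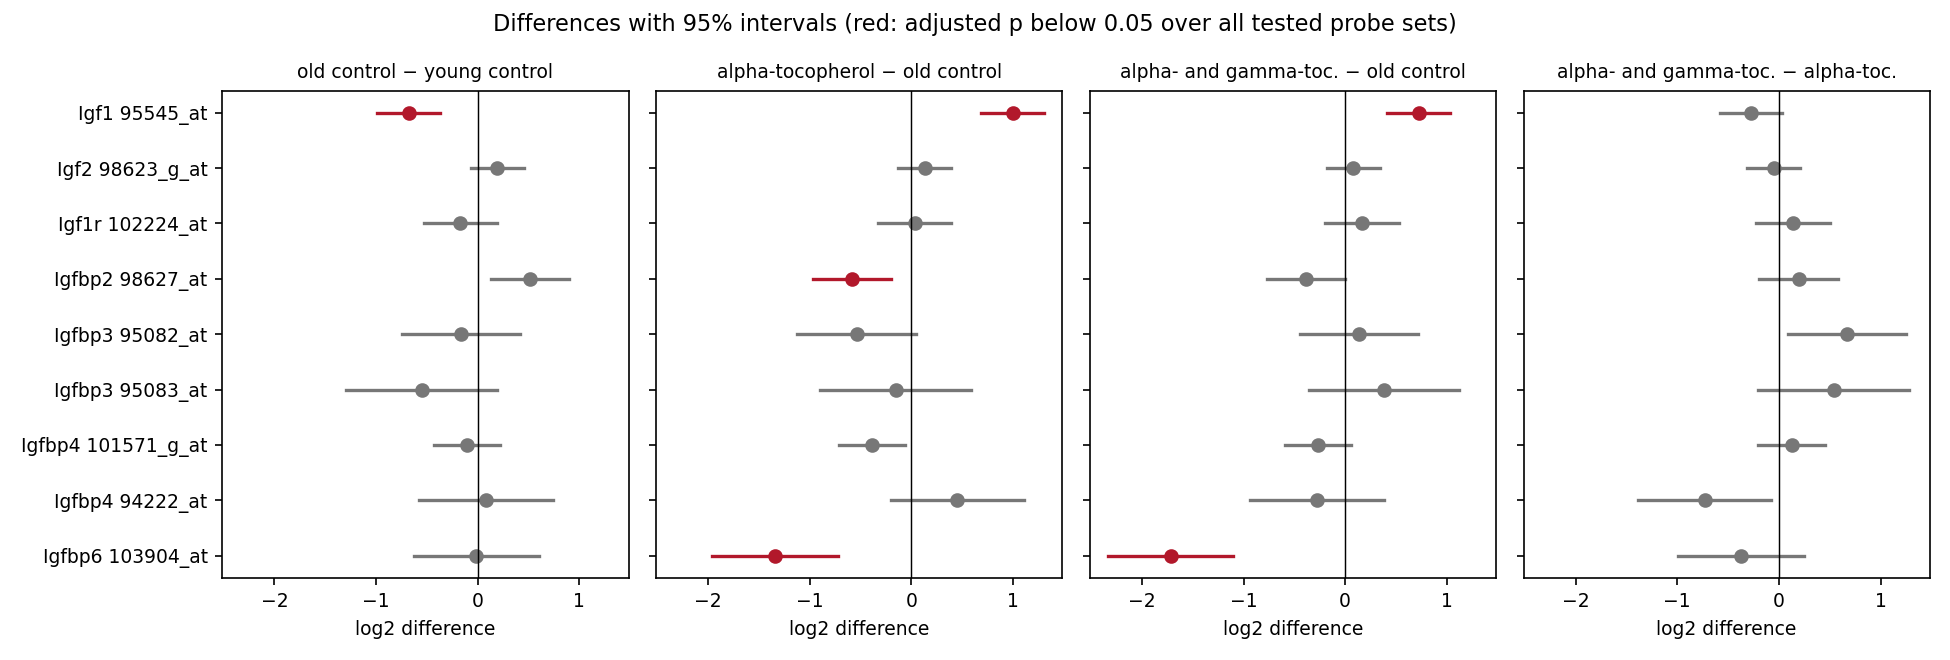
Log2 differences (horizontal axis) with 95% intervals of the 9 tested IGF probe sets (rows) in the 4 comparisons (panels); red marks an adjusted p below the threshold. Igf1 is red in the 3 comparisons with old controls, Igfbp6 in both comparisons of a supplement with old controls and Igfbp2 in 1, and the last panel holds no red.

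Igfbp3 and Igfbp4 each had 2 tested probe sets, and within each gene they did not move together. Igfbp3, the main carrier of IGFs in blood, read 1168.4 in young control 4 on 95082_at, the highest of all arrays, and 590.2 in the same heart on 95083_at, the lowest of the young controls. Alpha-tocopherol heart 5 read 150.4 on 95082_at, the lowest of all arrays, and 1480.8 on 95083_at. Across arrays 95082_at lay between 577.3 and 1039.2 with both tocopherols, 150.4 and 756.1 with alpha-tocopherol, 657 and 902.7 in old controls and 739.8 and 1168.4 in young controls. The range for 95083_at was 786.1 to 1547.9 with both tocopherols, 286.4 to 1709.5 with alpha-tocopherol, 778.2 to 1355 in old controls and 590.2 to 2003.8 in young controls. The groups overlapped on both probe sets. No Igfbp3 difference was called in any comparison. The age difference was -0.16 ± 0.28 on 95082_at and -0.55 ± 0.36 on 95083_at, and the differences of supplemented hearts from old controls ran from -0.54 ± 0.28 (95082_at, alpha-tocopherol) to 0.38 ± 0.36 (95083_at, both tocopherols).

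Igfbp4, an inhibitor of IGF action, differed between alpha-tocopherol hearts and old controls by -0.39 ± 0.16 on 101571_g_at (95% interval -0.72 to -0.063, limma adjusted p = 0.079) and by 0.45 ± 0.32 on 94222_at (limma adjusted p = 0.32). Neither passed the test. The first was called with array weights, with the replicate block and without alpha-tocopherol heart 1. Probe set 94222_at ran from 413.1 to 2318.6 with both tocopherols, 1932.1 to 3089.5 with alpha-tocopherol, 1298.1 to 2394.6 in old controls and 1127.9 to 2163.6 in young controls. Probe set 101571_g_at read 1707.3 to 2946.2 in alpha-tocopherol hearts, against 2806.2 to 3788.3 in young controls, a difference of -0.50 ± 0.16 that was called (limma adjusted p = 0.035) and was lost with either covariate, without the filter and without any one of alpha-tocopherol hearts 2, 3 or 4 or young controls 1 or 5. The dim Igfbp4 probe set (101570_at) lay between 58.4 and 386.5. Igfbp7, which binds IGFs weakly, read 203.7 to 466.7 with both tocopherols, 123.8 to 483.7 with alpha-tocopherol, 158.6 to 416.3 in old controls and 51.4 to 638.9 in young controls. These dim values overlap in all 4 groups.

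**Figure D3:**
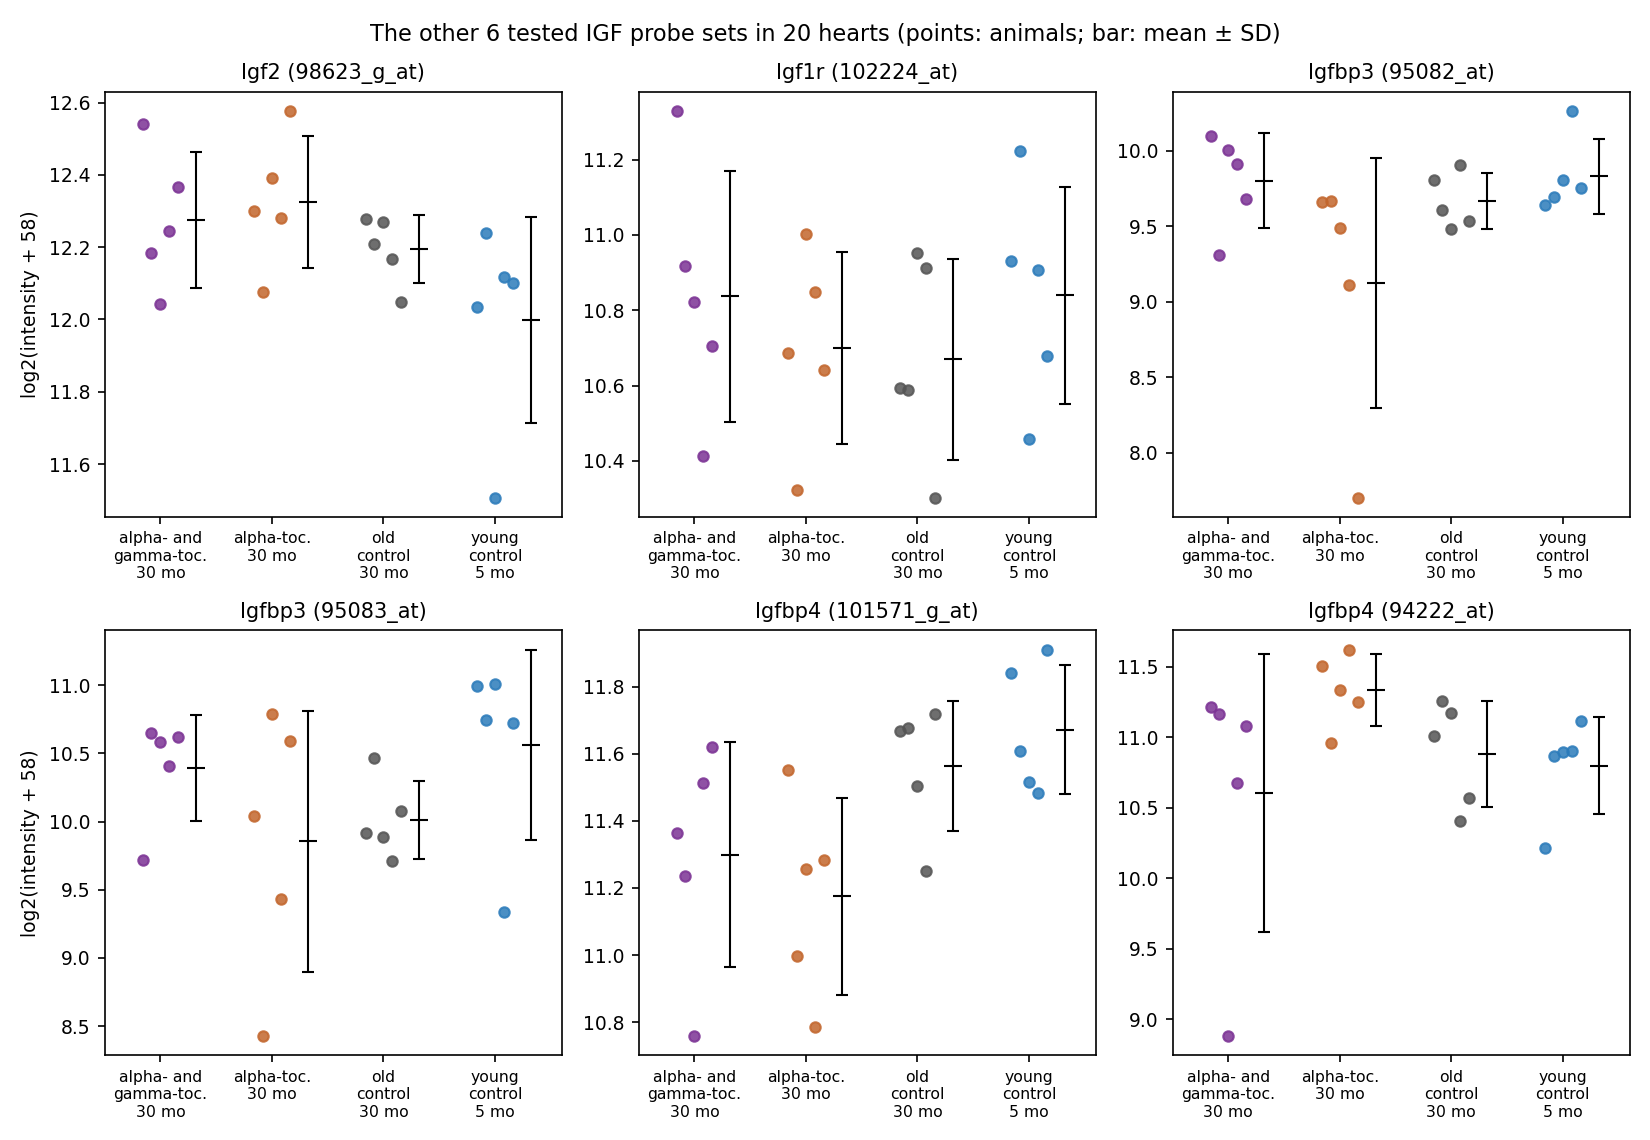
The 6 tested IGF probe sets with no called difference between groups of old mice, as log2(intensity + 58) on the vertical axis in the 4 groups, with 1 point per heart and the mean ± SD beside the points. The groups overlap in each of the panels, and the 2 probe sets of Igfbp3 and of Igfbp4 do not show the same pattern.

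Set against all probe sets, 1 of the 9 IGF probe sets was called for age, lower, where 4.94% of 7453 were called. With alpha-tocopherol against old controls 3 were called, 1 higher and 2 lower, where 21.7% were called. With both tocopherols against old controls 2 were called, 1 higher and 1 lower, where 6.43% were called. Between the supplements 0 were called by limma, with 2 at an unadjusted p below 0.05, and 0.564% of all probe sets were called. Those 2 were 95082_at of Igfbp3, at 0.67 ± 0.28 (alpha- and gamma-tocopherol minus alpha-tocopherol, limma adjusted p = 0.24), and 94222_at of Igfbp4, at -0.73 ± 0.32 (limma adjusted p = 0.26). The same difference was -0.049 for Igf2 (95% interval -0.31 to 0.21), 0.14 for Igf1r (-0.23 to 0.50) and 0.19 for Igfbp2 (-0.19 to 0.58), and these intervals do not show that the 2 diets act alike. Against young controls 2 were called with alpha-tocopherol (background 15.6%) and 1 with both tocopherols (background 5.55%). With 9 probe sets, these shares rest on 1 to 3 calls each. Groups did not overlap in 2, 1, 3 and 0 of the 9 for age, alpha-tocopherol, both tocopherols and the supplements against each other, where 7.02%, 16.2%, 8.32% and 3.9% of all probe sets did not.

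Across the 20 arrays, the named genes with the profile most like that of Igf1 were Nomo1 (r = 0.93), Map2k3 (r = 0.92) and Gstm1 (r = 0.92). For Igfbp6 they were S100a6 (r = 0.86), Art1 (r = 0.83) and Erbb3 (r = 0.82), and for Igfbp2, Tm2d3, Rcn1 and Mrpl20 (r = 0.77, 0.77 and 0.74). These are Pearson correlations of log2 values over arrays of 4 groups that share their scaling.

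Of 96 genes on lists of the wider pathway, 77 were on the array and 60 were tested. For age 7 were called, 2 higher and 5 lower (11.7%, against 4.94% of all probe sets). With alpha-tocopherol 13 were called, 6 higher and 7 lower (21.7%, the same share as of all probe sets), and with both tocopherols 6, 3 in each direction (10%, against 6.43%). Between the supplements 0 were called by limma, with 9 at an unadjusted p below 0.05. The median difference over the 60 genes was -0.12 for age, 0.059 with alpha-tocopherol and 0.032 with both tocopherols, and over all tested probe sets it was 0.014 for age, -0.019 with alpha-tocopherol and -0.0086 with both tocopherols.

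Among the 14 tested binding-protein proteases and related secreted proteins, 1 (7.14%) was called for age, 3 (21.4%) with alpha-tocopherol and 2 (14.3%) with both tocopherols. The shares of all probe sets were 4.94%, 21.7% and 6.43%. Htra1, a secreted protease that cleaves IGF binding proteins, was higher with age and lower with each supplement. It read 2469, 3510, 3043, 3900 and 2837 with alpha- and gamma-tocopherol, 3435, 2029, 3263, 2992 and 3756 with alpha-tocopherol, 5253, 5901, 6432, 5340 and 4398 in old controls and 2878, 2434, 2707, 4229 and 3461 in young controls. All old controls lay above all other hearts. The differences were 0.80 ± 0.17 for age (limma adjusted p = 0.0048), -0.83 ± 0.17 with alpha-tocopherol (limma adjusted p = 0.0012) and -0.79 ± 0.17 with both tocopherols (limma adjusted p = 0.0069). The matricellular protein gene Ccn3 was lower with alpha-tocopherol (-1.74 ± 0.45, limma adjusted p = 0.0085) and with both (-1.58 ± 0.45, limma adjusted p = 0.039), and the second call was lost under most single-animal omissions. The lysosomal protease Ctsd was higher with alpha-tocopherol (0.56 ± 0.17, limma adjusted p = 0.020). Ctsd read 33735 to 40195 in alpha-tocopherol hearts and 14145 to 34560 in old controls, so the groups overlapped. The lowest value was that of old control 3, the array set apart above by its GAPDH signal.

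Among the 6 tested receptors and adaptors, 0 were called for age, 2 (33.3%) with alpha-tocopherol and 2 (33.3%) with both tocopherols. The shares of all probe sets were 4.94%, 21.7% and 6.43%. Igf2r, which takes up IGF2 for degradation, was higher than in old controls by 0.70 ± 0.14 with alpha-tocopherol (limma adjusted p = 0.0011) and by 0.57 ± 0.14 with both tocopherols (limma adjusted p = 0.017). The second call was lost without alpha- and gamma-tocopherol animal 1. It read 5318, 5679, 5312, 6855 and 6053 in alpha-tocopherol hearts, against 3300, 3766, 3329, 3354 and 4122 in old controls. All 5 lay above all old controls. The adaptor Gab1 was lower with alpha-tocopherol (-0.74 ± 0.16, limma adjusted p = 0.0030) and with both tocopherols (-0.65 ± 0.16, limma adjusted p = 0.021).

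In the PI3K-Akt-mTOR branch, 3 of 18 tested genes (16.7%) were called for age, 5 (27.8%) with alpha-tocopherol and 1 (5.56%) with both tocopherols. The shares of all probe sets were 4.94%, 21.7% and 6.43%. With alpha-tocopherol only the 4 with the smallest p are named. The transcription factor Foxo3 fell by 0.60 ± 0.14 with age (limma adjusted p = 0.013). Foxo3 was higher than in old controls by 0.62 ± 0.14 with alpha-tocopherol (limma adjusted p = 0.0037) and 0.78 ± 0.14 with both tocopherols (limma adjusted p = 0.0024). It read 1933 to 3647 with both tocopherols, 1996 to 2738 with alpha-tocopherol, 1305 to 1590 in old controls and 2115 to 2405 in young controls. All 5 old controls lay below all other hearts. The translation repressor Eif4ebp1 fell by 0.70 ± 0.13 with age (limma adjusted p = 0.0019), and the stress-induced mTOR inhibitor Ddit4 by 1.02 ± 0.24 (limma adjusted p = 0.014). With alpha-tocopherol Eif4ebp2 was higher (0.40 ± 0.091) on its brightest probe set, with the opposite sign and no call on the other (-0.33 ± 0.44), and the kinases Gsk3a (-0.36 ± 0.081) and Sgk1 (-0.78 ± 0.18) were lower.

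Of 9 tested genes of the growth hormone axis, 1 (11.1%) was called for age, 1 with alpha-tocopherol and 1 with both tocopherols. Of all probe sets 4.94%, 21.7% and 6.43% were called. Stat5a, a transcription factor downstream of the growth hormone receptor, was higher with alpha-tocopherol (0.63 ± 0.13, limma adjusted p = 0.0013) and with both tocopherols (0.53 ± 0.13, limma adjusted p = 0.016). Stat5b had the opposite sign and no call, at -0.33 ± 0.26 and -0.18 ± 0.26. The feedback inhibitor Cish fell by 0.45 ± 0.13 with age (limma adjusted p = 0.045), a call lost in most alternatives. Among the 12 tested imprinted genes, 2 (16.7%) were called for age, 2 (16.7%) with alpha-tocopherol and 0 with both tocopherols. Ndn was higher with age (0.78 ± 0.22, limma adjusted p = 0.037) and Peg3 lower (-0.61 ± 0.17, limma adjusted p = 0.037). Both calls were lost in several alternatives. With alpha-tocopherol Ndn (-0.60 ± 0.22) and Sgce (-0.51 ± 0.16) were lower, with limma adjusted p = 0.048 and 0.030, and both calls were also lost in several alternatives. The 1 tested gene of the relaxin and insulin family was not called. With the 18S or the hybridization control covariate, each pathway gene named here for alpha-tocopherol kept its sign and lost its call. Neither measure overlapped between alpha-tocopherol hearts and old controls, so these fits cannot tell the diet from the array measure. In them Htra1 was -0.68 (18S) and -1.08 (hybridization controls), Igf2r 0.35 and 0.83, Foxo3 0.56 and 0.56, and Stat5a 0.69 and 0.57.

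**Figure D4:**
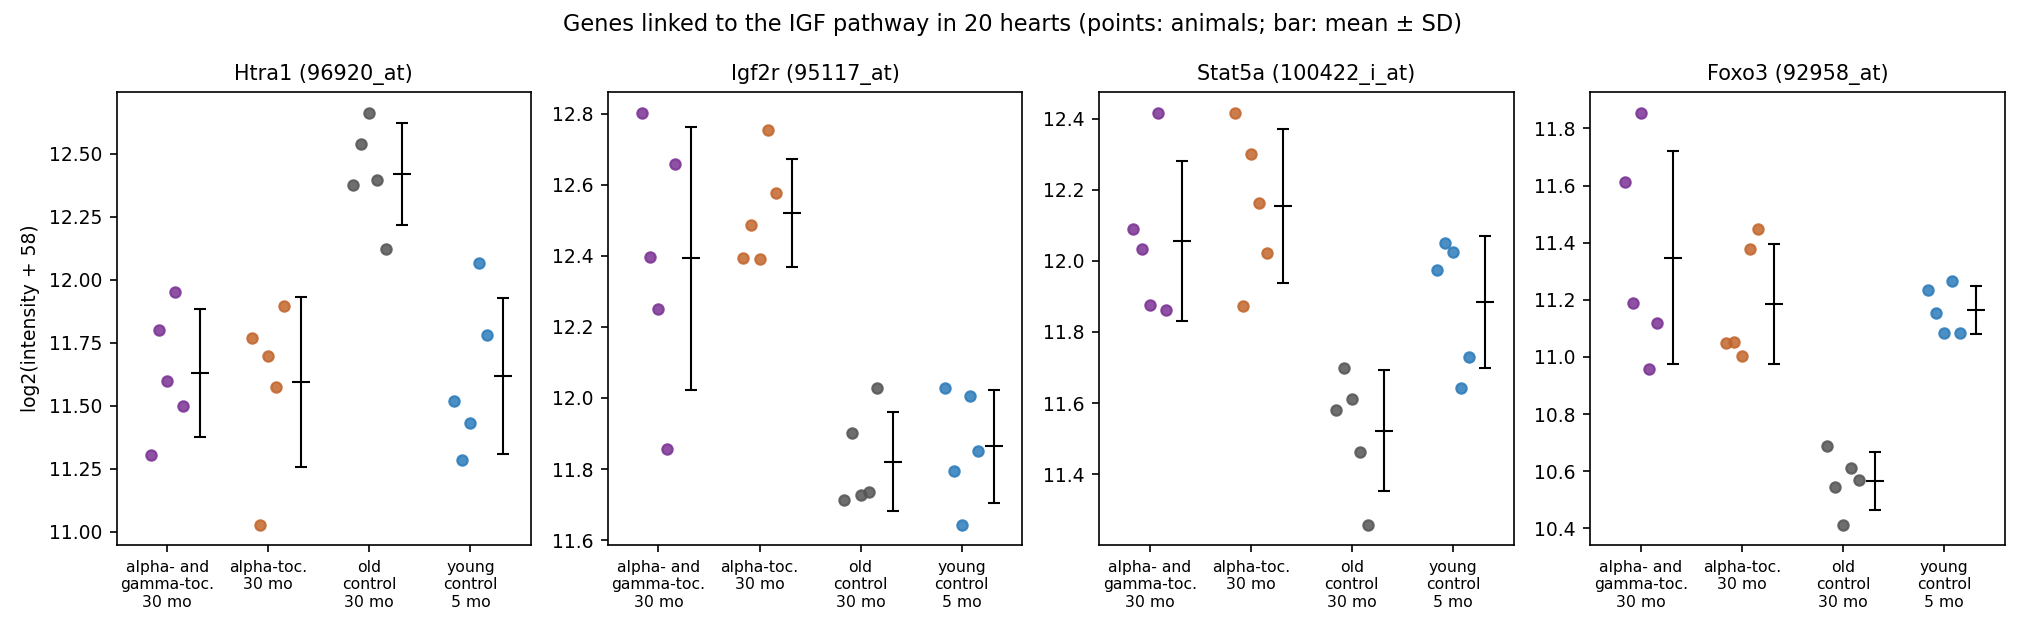
Htra1, Igf2r, Stat5a and Foxo3 as log2(intensity + 58) on the vertical axis in the 4 groups, with 1 point per heart and the mean ± SD beside the points. The old controls lie above all other hearts for Htra1 and below all other hearts for Foxo3.

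Markers of other cells were read on the same arrays, where 4.94% of all probe sets were called for age, 21.7% with alpha-tocopherol and 6.43% with both tocopherols. In bulk tissue, fewer cells of a type and less RNA per cell cannot be told apart. Of 12 fibroblast markers, 9 were called with alpha-tocopherol (8 lower, 1 higher) and 5 with both tocopherols (4 lower, 1 higher), and the transcription factor gene Tcf21 was the 1 called for age, higher in old controls. The collagen Col3a1 was lower with alpha-tocopherol (-1.39 ± 0.26) and with both (-1.54 ± 0.26). Lum was lower with alpha-tocopherol (-0.95 ± 0.16, limma adjusted p = 0.00031). The higher one with each supplement was Col1a2, whose other probe set had the opposite sign, as did the other probe sets of Mfap5 and Pdgfra, both called lower with alpha-tocopherol. The summed fibroblast intensity ran from 92082 to 133023 with alpha-tocopherol, 86494 to 126818 with both, 119372 to 132119 in old controls and 114160 to 139102 in young controls. The sum adds raw intensities, so bright markers weigh most. In old controls Lum read 5214 to 8188 and Col3a1 2659 to 3682, small parts of the sum. The overlap of the sums therefore says little about such dimmer markers. The part of fibroblast content in the Igfbp6 differences with both supplements, and in the Igfbp2 difference with alpha-tocopherol, was not tested.

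Of 7 tested liver markers 4 were lower with alpha-tocopherol and 3 with both, and their sum ran from 1657 to 2971 with alpha-tocopherol, 1864 to 3429 with both, 4498 to 18901 in old controls and 3238 to 10725 in young controls. Albumin (Alb) lay at 55.6 to 230.8 with alpha-tocopherol, 102.7 to 641 with both, 1928 to 13004 in old controls and 130.3 to 5743 in young controls. Igf1 and Igfbp2 are also liver products, and the part of liver RNA in their differences was not tested.

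The 8 cardiomyocyte markers summed to 672205 to 827762 with alpha-tocopherol, 493927 to 681158 with both tocopherols, 563313 to 703101 in old controls and 552189 to 689104 in young controls, and 4 of them were higher with alpha-tocopherol. Of 6 tested skeletal muscle markers, 4 were called with alpha-tocopherol (Myog, Pvalb and Myh4 higher, Acta1 lower) and 1, Pvalb, was higher with both tocopherols. Their sum ran from 20855 to 27939 with alpha-tocopherol, 20719 to 25753 with both, 21330 to 34622 in old controls and 16655 to 28067 in young controls. Acta1 alone ran from 2570 to 11829 with alpha-tocopherol and from 7081 to 18487 in old controls. The sum therefore depends on Acta1, which went against Myog, Pvalb and Myh4 with alpha-tocopherol. Of 9 myeloid markers 5 were lower with alpha-tocopherol and 1 with both. Of 12 endothelial markers 2 were lower with alpha-tocopherol, a share of 16.7% below that of all probe sets, 3 were lower with both and 2 were higher with age. Of 8 smooth muscle and pericyte markers 2 were lower with alpha-tocopherol (Acta2 and Myh11), 1 was higher (Des), and Acta2 was lower with both. Des was the only one called for age, lower, and it is not particular to these cells. Of 3 tested mesothelial and epicardial markers, Clu was called, lower with age and higher with alpha-tocopherol. Of 5 tested adipocyte markers Lipe was called, lower with age. The lowest value in the deposited table was 0.4 and the 10th percentile was 57.6, while Alb went down to 55.6 with alpha-tocopherol. A value above 0 therefore does not show that a marker was detected.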

How the data were processed

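Transcripts of 20 hearts were measured, each animal on its own Affymetrix murine array, with 5 animals in each of 4 groups. According to the labels' protocols, frozen tissue gave total RNA, oligo-dT resin selected its polyadenylated fraction, and biotin-labelled cRNA was hybridized. The authors deposited a linear intensity for each probe set on each array. Which software produced it is not given in those sources, and detection calls were not used.

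The values were transformed to log2(intensity + 58), a pseudocount at the 10th percentile of the deposited table, which understates folds of dim probe sets. Arrays were not rescaled. Their means after trimming 2% at each end ran from 1501.01 to 1501.14, so the deposited values already shared one scaling. Their medians lay within 0.117 on the log2 scale. After such scaling, close medians do not show that the arrays are alike in other respects. Left out were 66 control probe sets and, by mean over all arrays, the dimmest 40% of the remaining 12422. A limma model (limma 3.58.1, R 4.3.3, trend and robust eBayes, 16 residual degrees of freedom) of the 4 group means was then fitted to all 20 arrays. Its p-values are two-sided and adjusted by Benjamini-Hochberg over 7453 probe sets, with calls below 0.05. The model code was first tested on simulated data. A typical difference had an SE of 0.179 (median), and precision is limited by how few arrays there are.

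Members, gene lists and tests were chosen with earlier results of these data known. Named were all member probe sets, the called pathway genes (at most 4 per list and comparison) and the 3 genes most like each called member. Of the called markers at most 3 per list and comparison were chosen, and not all of these are named. Myh4, Pdgfra and the alpha-tocopherol difference of Col3a1 are given outside this limit. A gene outside the members is its brightest tested probe set. Deviations of same-numbered animals from their group means correlated at -0.082 to 0.10, and at 0.041 to 0.10 for age. Animals of different numbers were not compared, so these values do not settle whether numbers pair animals. The main fit left the numbers out. Alternatives were pseudocounts of 16 and 200, no filter, quantile normalization, array weights, the compared groups only, a replicate block, hybridization control and 18S covariates, and omission of animals. Promoter sequences and their positions are those of RefSeq, build GRCm38.p6; the array files name no build.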

Additional observations from a re-analysis of the deposited data

Results flagged for a closer look

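Of 52 groups of 5 values (13 IGF probe sets in 4 groups), 13 had an animal far from the other 4 by Dixon's criterion, where chance gives about 1 in 20. For Igf1, alpha-tocopherol heart 3 read 9771.2 on 95545_at (next 6306.5) and 558.5 on the dim 95546_g_at (next 191), and old control 5 read 153.5 on the dim probe set. For Igf2, young control 3 read 2852.7 on 98623_g_at.

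Young control 4 stood apart on 3 probe sets, at 1168.4 on 95082_at and 590.2 on 95083_at, both of Igfbp3, and at 329.9 on the dim 101570_at of Igfbp4. Alpha-tocopherol heart 5 read 150.4 on 95082_at, and alpha- and gamma-tocopherol heart 1 read 786.1 on 95083_at. For Igfbp4, old control 1 read 215.1 on 101570_at. On 94222_at alpha- and gamma-tocopherol heart 3 read 413.1 and young control 1 read 1127.9. For the dim Igfbp7, alpha-tocopherol heart 4 read 483.7.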

How the results depend on the processing

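Called IGF probe sets numbered 1 for age, 3 for alpha-tocopherol, 2 for both tocopherols against old controls and 0 between supplements. With array weights 2 were called for age, and with the 18S covariate 0 for alpha-tocopherol (1 at an unadjusted p below 0.05); leaving out 1 animal at a time gave 1 for age, 2 to 4 with alpha-tocopherol, 2 with both and 0 between supplements. With a replicate block 1 was called for age, 4 with alpha-tocopherol, 2 with both and 0 between supplements, the added one being 101571_g_at of Igfbp4 (limma adjusted p = 0.049). Array weights gave 731 called probe sets for age (of 7453; 368 otherwise), 858 for both tocopherols (479) and 7 between supplements (42). The 18S covariate gave 142 for alpha-tocopherol (1619) and 0 between supplements, and the hybridization control covariate 144 for alpha-tocopherol, 242 for both tocopherols and 0 between supplements (587 and 820 there at an unadjusted p below 0.05). Without old controls 1 and 4 the counts were 150 (age), 981 (alpha-tocopherol) and 162 (both tocopherols). Between supplements 11 were called without the filter and 0 with the compared groups only (1071 at an unadjusted p below 0.05). Leaving out 1 animal at a time gave 258 to 367 for age, 1179 to 1556 for alpha-tocopherol, 263 to 447 for both and 0 to 79 between supplements. The marker Myl3 turned to -0.0094 under quantile normalization (0.34 otherwise). Among 1098 IGF results under alternatives, 44 changed sign while called in neither setting. The causes were not tested. Signal limits what can be read for the 4 dim IGF probe sets.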
